A study of Mus musculus with 20 samples.

Results

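The FXYD family of sodium pump regulators was read in RNA that iron regulatory protein 1 (IRP1) held in a test-tube immunoprecipitation. Its members were found by name: every probe set annotated to Fxyd1 to Fxyd7, which gave 10 probe sets of 7 genes out of 45037 tested (45101 in the table, 64 of them array controls). Fxyd5, measured by 1 probe set (1418296_at), was chosen by its IRP1 minus control difference in these same arrays. That difference is therefore given as a description with no test. The other 6 genes, with 9 probe sets, entered by name and are the comparison.

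FXYD proteins are small membrane proteins that span the membrane once and sit beside the sodium pump (Na,K-ATPase), the enzyme that keeps sodium low and potassium high inside animal cells. Each alters the pump's affinity for ions or its transport rate, and each has its own set of tissues. IRP1 senses cellular iron and binds the iron-responsive element, a hairpin found in messages such as those of ferritin and the transferrin receptor. Whether any Fxyd message carries such an element was not analysed here.

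Total RNA was pooled from C57BL6/J mice, both sexes per the labels, and 50 µg of it was mixed with a rabbit polyclonal antibody against IRP1 and His-tagged recombinant IRP1 from E. coli. The series design text gives 4 to 6 mice, and the sample labels give 4 for 1 duodenum sample, 6 for bone marrow and brain and no number for the others. Per their titles and protocols the control reactions left out the recombinant protein, although the source field of the same samples lists it; the titles and protocols were followed for every IRP1 minus control value. About 120 ng of recovered RNA was amplified for each Affymetrix GeneChip mouse array. There were 2 IRP1 and 2 control arrays for each of 5 tissues, 20 arrays in all. Both reactions on duodenum, liver and spleen used RNA of mice that ate an iron-poor diet (below 10 mg/kg) for 21 days from weaning, whereas both reactions on bone marrow and brain used RNA of 8 to 10 week old mice whose diet was iron-normal. Diet and age therefore go with tissue and cannot be told apart from it. Animals were pooled, and the labels do not say whether replicates came from separate pools. The p-values thus measure the spread between reactions and arrays, with any difference between pools in it, and not that between single animals.

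Values are the deposited log2 signals per probe set, so a difference of 1 is a factor of 2. Array medians were 5.50 to 5.62 with IRP1 and 5.50 to 5.61 in the controls. Each tissue carried its own markers: for example the neutrophil precursor list averaged at least 13.01 in every bone marrow array and at most 8.06 elsewhere, and the neuron and glia list at least 9.97 in brain and at most 6.11 elsewhere. Over 13 lists of cell type markers the mean difference between IRP1 and control ran from -0.15 (macrophages) to 0.095 (B and T cells), and in single tissues from -0.58 (pancreatic acinar cells in duodenum) to 0.41 (enterocytes in bone marrow), with macrophages at -0.40 in spleen and -0.36 in liver. The 3' minus 5' signal of Actb, a sign of RNA integrity, was 2.12 to 4.38 with IRP1 and 2.03 to 3.53 in the controls. Hybridization controls were low in 3 arrays: 1.03 below the median array in spleen IRP1 array 2, 1.25 below in spleen control array 2 and 0.79 below in bone marrow control array 1.

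Fxyd5 encodes dysadherin, a glycosylated member of the family known for raising pump activity and, in human carcinoma cells, for lowering E-cadherin. Its signal was 4.49 times as high with IRP1 as in the control in the mean of 5 tissues (log2 2.17, SE 0.16, 95% interval 1.83 to 2.50, n = 2 arrays per reaction and tissue). Only 16 probe sets of the 45037 had a larger mean difference. Both IRP1 arrays lay above both control arrays in all 5 tissues, as they did for 0.409% of all probe sets.

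In bone marrow the Fxyd5 signal was 12.23 and 12.98 with IRP1, against 9.80 and 9.75 in the controls. In spleen it was 11.43 and 12.75 with IRP1 and 9.45 and 9.77 in the controls. These tissues gave the brightest signals of this probe set in either reaction, and their IRP1 arrays stood clear of every control array of the study. In brain the signal was 9.23 and 9.05 with IRP1, against 6.71 and 6.58 in the controls. In duodenum it was 9.72 and 8.78 with IRP1, against 7.20 and 7.29 in the controls. Brain and duodenum had the dimmest controls of the 5 tissues, yet their IRP1 arrays reached signals above those of both liver controls. In liver the signal was 8.70 and 8.82 with IRP1, against 7.55 and 7.91 in the controls, the narrowest separation of the 5.

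**Figure D1:**
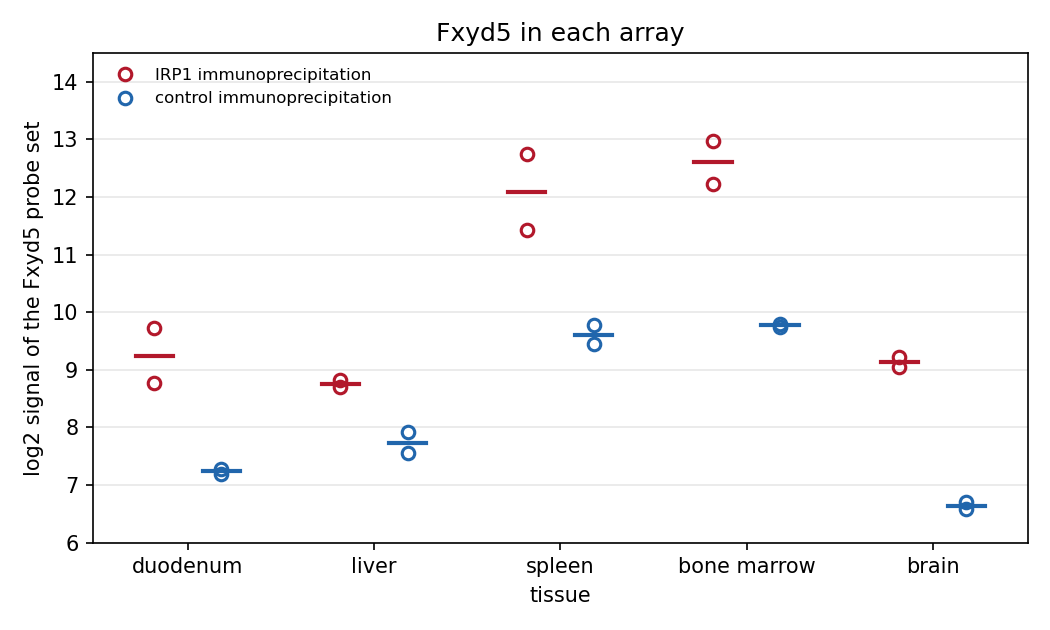
Log2 signal of the Fxyd5 probe set (vertical axis) in each of the 20 arrays by tissue (horizontal axis), with IRP1 in red at the left of each pair and control in blue at the right; circles are arrays and bars are means of 2. The IRP1 arrays sit above the control arrays in each tissue, with a gap between the nearest arrays of 2.43 in bone marrow and 0.79 in liver.

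As differences of means, Fxyd5 was higher with IRP1 by log2 2.83 in bone marrow (7.11-fold), 2.50 in brain (5.64-fold), 2.48 in spleen (5.57-fold), 2.01 in duodenum (4.02-fold) and 1.03 in liver (2.04-fold), each with an SE of 0.35. Among all probe sets this difference ranked 16 in brain, 17 in bone marrow and in spleen, 21 in duodenum and 89 in liver. The spleen value rested on IRP1 arrays that lay far apart (12.09 ± 0.94 with IRP1 and 9.61 ± 0.22 in control, SD, n = 2 each): it was 1.82 without IRP1 array 2, an array with low hybridization controls, 3.14 without IRP1 array 1 and 1.97 without the 3 arrays with low hybridization controls. The duodenal IRP1 arrays also differed (9.25 ± 0.67 with IRP1 and 7.24 ± 0.063 in control, SD, n = 2 each), whereas the liver ones lay close together (8.76 ± 0.082 with IRP1 and 7.73 ± 0.25 in control, SD, n = 2 each).

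The tissue differences of Fxyd5 are the values that chose it, so no test of their variation is given. The 16 probe sets with a larger mean difference had a median of log2 2.40 in liver and 2.49 in duodenum, against 3.26 in bone marrow, 2.81 in brain and 2.74 in spleen. The number larger than Fxyd5 was 15 in liver, 14 in duodenum, 12 in spleen, 12 in bone marrow and 10 in brain. These 16 were picked for a mean difference above that of Fxyd5, so the counts are partly set by that choice.

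The control reactions reflect RNA recovered without IRP1. Their values enter the difference that chose Fxyd5. A comparison of one tissue's controls with another's is a different contrast, in which the mean difference between the reactions cancels. It still shares control values with the single-tissue differences. The p-values between Fxyd5 controls are therefore not independent of the choice of this gene. Fxyd5 control signals differed between tissues (F-test, limma adjusted p = 8.03e-07), as did those of 5 of the 10 FXYD probe sets and of 63.1% of all probe sets. The order was bone marrow (9.77 ± 0.033, SD, n = 2), spleen (9.61 ± 0.22), liver (7.73 ± 0.25), duodenum (7.24 ± 0.063) and brain (6.64 ± 0.088). Bone marrow over spleen was a difference of 0.16 (SE 0.35, limma adjusted p = 0.803, where 18.4% of all probe sets passed) and did not pass. Spleen over liver was 1.88 (3.68-fold, limma adjusted p = 0.000400), in a contrast where 38.4% of all probe sets passed. Liver over duodenum (0.49, limma adjusted p = 0.348) and duodenum over brain (0.60, limma adjusted p = 0.204) did not pass.

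Both blood-forming tissues thus had the higher Fxyd5 control signal. The red cell precursor list (3 measured genes) averaged 9.86 in bone marrow, 8.68 in spleen, 5.62 in liver, 5.13 in duodenum and 4.96 in brain over both reactions. In brain 0 of the 3 exceeded the median signal, and in bone marrow, spleen, liver and duodenum alike 2 of the 3 did. The list means had the same order of tissues as Fxyd5, but the counts above the median did not separate the first 4. Between neighbours in the Fxyd5 order only spleen over liver had passed. The neutrophil precursor list averaged 13.20 in bone marrow, 7.96 in spleen and at most 6.27 elsewhere. The macrophage marker list, which averaged 10.67 in spleen, 9.09 in liver, 9.02 in bone marrow, 8.22 in duodenum and 7.67 in brain, and the B and T cell list (9.52 in spleen and 7.22 in bone marrow, at most 6.10 elsewhere) also moved with tissue. The 3' minus 5' signal of Gapdh was 4.64 and 4.49 in the bone marrow controls, 3.46 and 3.51 in the spleen controls and 2.60 to 3.34 in the other controls. The part of these cell types and of RNA integrity in the Fxyd5 level was not tested. In whole tissue, more cells of a type and more RNA per cell cannot be told apart. With IRP1 the order of Fxyd5 was bone marrow, spleen, duodenum (9.25 ± 0.67, SD, n = 2), brain (9.14 ± 0.12) and liver (8.76 ± 0.082). Liver came last, although its control mean stood above those of duodenum and brain. The order with IRP1 was not tested, and liver over duodenum had not passed in the controls.

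The relatives were read in the same reactions, and none of their 9 probe sets passed limma's test in the mean of 5 tissues: 0 were called higher (0.773% of all probe sets were) and 0 lower (1.03% were), with 0 at an unadjusted p under 0.05 (16.4% of all probe sets were). Their mean differences ran from -0.058 to 0.16, with a median of -0.021 beside -0.0056 over all probe sets (SD 0.18). The highest upper bound of a 95% interval among them was 0.44, a 1.36-fold difference, and the lowest bound was -0.34. In single tissues 0 of 9 were called in either direction (0.104% of all probe sets were in duodenum, 0.184% in liver, 0.102% in spleen, 0.131% in bone marrow and 0.124% in brain), with 2 of 45 pairs of probe set and tissue at an unadjusted p under 0.05 (7.73% of all such pairs were), and the lowest adjusted p was 0.656 (limma). Of the 45 pairs, 6 had both IRP1 arrays above both controls (17.8% of all such pairs), 7 had both below (19.7%) and 32 overlapped.

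**Figure D2:**
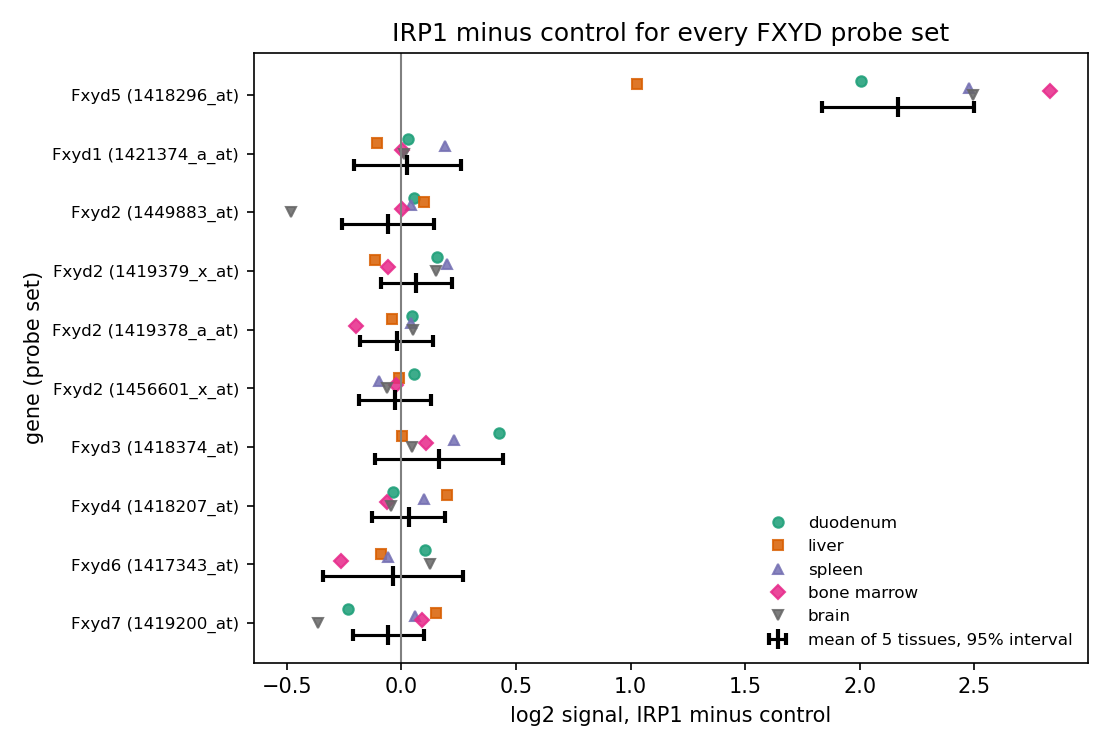
Difference in log2 signal, IRP1 minus control (horizontal axis), for each FXYD probe set (rows), with coloured symbols for the 5 tissues and a black bar for their mean with its 95% interval. Fxyd5 lies at 1.03 to 2.83 in the 5 tissues, and the relatives' values lie between -0.48 and 0.43.

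**Figure D3:**
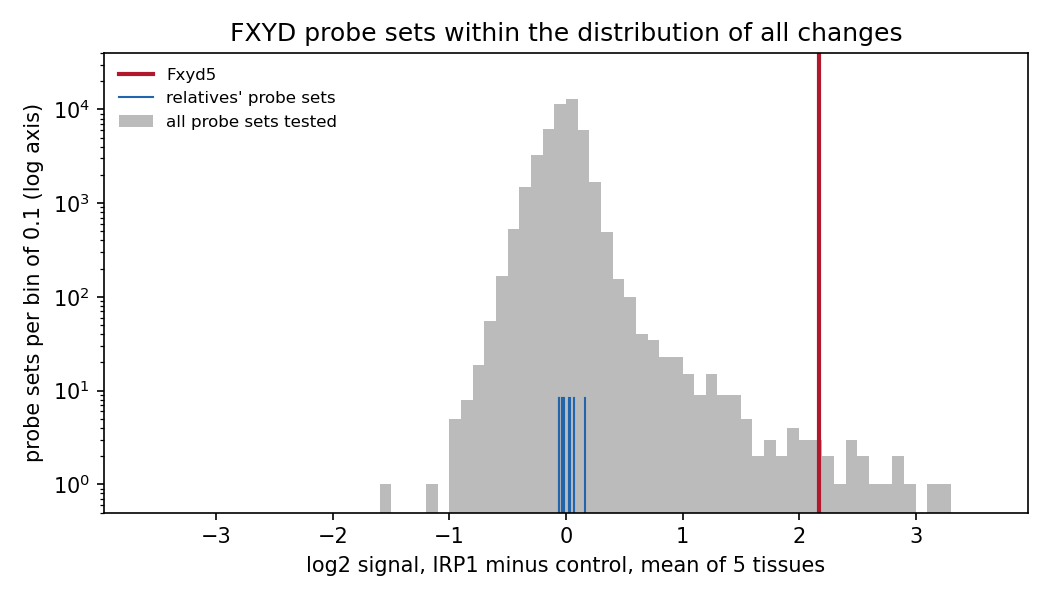
Number of probe sets (vertical axis, log scale) by the difference in log2 signal, IRP1 minus control, in the mean of 5 tissues (horizontal axis, bins of 0.1). The blue ticks of the 9 relatives' probe sets fall in the bulk around 0, and the red line of Fxyd5 at 2.17 falls in the right tail with 16 probe sets beyond it.

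Fxyd1, or phospholemman, is the family's main target of protein kinases in heart and muscle, where it restrains the pump until it is phosphorylated. It had the widest range of control signals in the family. In liver its signal was 11.57 and 11.74 with IRP1, against 12.08 and 11.44 in the controls, and in brain it was 8.85 and 9.29 with IRP1 and 9.05 and 9.07 in the controls. The reactions overlapped in both tissues. Spleen gave 8.04 and 8.15 with IRP1 and 7.77 and 8.03 in control, duodenum 7.73 and 7.33 with IRP1 and 7.58 and 7.42 in control, and bone marrow 6.54 and 7.17 with IRP1 and 7.07 and 6.63 in control. Only in spleen did the reactions separate, and there by a narrow margin. The mean difference was 0.026 (SE 0.11, limma adjusted p = 0.942).

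Between tissues, the Fxyd1 control signal was highest in liver, by 2.70 over brain (6.52-fold, limma adjusted p = 1.00e-07, where 40.5% of all probe sets passed). Brain stood above spleen by 1.15 (2.23-fold, limma adjusted p = 0.00115, where 38.2% passed). Spleen over duodenum (0.40, limma adjusted p = 0.256, where 32.3% passed) and duodenum over bone marrow (0.65, limma adjusted p = 0.0594) did not pass. Liver was thus the tissue where Fxyd1 was brightest and where Fxyd5 had its smallest IRP1 difference. The skeletal muscle and smooth muscle markers, cells in which Fxyd1 is known, were in the lists, and their mean differences between IRP1 and control were -0.021 and -0.093.

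Fxyd2 is the gamma subunit of the pump, best known from kidney tubules, a tissue not sampled here. Its brightest probe set (1449883_at) exceeded the array median in 3 of 20 arrays and the other 3 (1419379_x_at, 1419378_a_at and 1456601_x_at) in 0, so a difference there would be compressed. Across the arrays the brightest ran from 4.35 to 5.67. The 4 mean differences were -0.057 (SE 0.095), 0.066 (SE 0.072), -0.021 (SE 0.075) and -0.029 (SE 0.074), with limma adjusted p of 0.830, 0.720, 0.931 and 0.897. In brain the brightest gave 4.63 and 4.35 with IRP1 and 4.99 and 4.95 in control, the lowest tissue difference among the relatives (-0.48, unadjusted p = 0.0372, limma adjusted p = 0.744), and its sister probe sets gave 0.15, 0.049 and -0.065 there. Its control signal did not pass the test between tissues by any of the 4 (limma adjusted p from 0.0896 to 0.527). Probe sets whose names end in x_at are prone to cross-hybridization.

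Fxyd3, first found in mammary tumours as Mat-8, is made in epithelia of the gut and skin. Its signal in duodenum was 6.60 and 7.78 with IRP1, against 7.02 and 6.50 in the controls, so the reactions overlapped although the difference of means (0.43) was the highest among the relatives (limma adjusted p = 1.00). In the other tissues it lay between 5.13 and 5.50 with IRP1 and between 4.70 and 5.54 in control. Each of these arrays had Fxyd3 below the array median, so a difference there would be compressed. The mean difference was 0.16 (SE 0.13, limma adjusted p = 0.597), and it was 0.045 without duodenum IRP1 array 2 and 0.28 without duodenum IRP1 array 1. Its control signal was higher in duodenum than in liver, the next tissue, by 1.33 (2.52-fold, limma adjusted p = 0.00242, where 27.5% of all probe sets passed), and liver, bone marrow, brain and spleen followed within 0.38 of each other. The duodenal arrays also carried pancreatic acinar markers (a list mean of 13.02, against 8.84 in spleen and 5.41 to 6.16 in the other tissues), and their part in the Fxyd3 signal was not tested.

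Fxyd4, the corticosteroid-induced CHIF of the collecting duct and distal colon, was nearly flat. Its signal lay between 5.99 and 6.74 with IRP1 and between 5.93 and 6.41 in control over all tissues. The mean difference was 0.031 (SE 0.076, limma adjusted p = 0.889), and its control signal did not pass the test between tissues (limma adjusted p = 0.275).

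Fxyd6 (phosphohippolin) and Fxyd7 are the members known for the nervous system, and both had their highest control signal in brain. Fxyd6 in brain was 9.12 and 9.41 with IRP1, against 8.57 and 9.71 in the controls. The control arrays there enclosed the IRP1 arrays. In the other tissues Fxyd6 lay between 5.03 and 7.19 with IRP1 and between 5.15 and 6.85 in control. It was below the array median in all liver arrays and most bone marrow arrays, where a difference would be compressed. Its mean difference was -0.036 (SE 0.14, limma adjusted p = 0.938). Its control signal in brain was above that in duodenum, the next tissue, by 2.40 (5.29-fold, limma adjusted p = 9.48e-06, where 39.6% of all probe sets passed). Duodenum over spleen (0.26, limma adjusted p = 0.606), spleen over bone marrow (0.93, limma adjusted p = 0.0549) and bone marrow over liver (0.18, limma adjusted p = 0.742) did not pass.

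Fxyd7 was dim throughout, below the array median in all 20 arrays. In brain it was 4.80 and 4.71 with IRP1, against 5.01 and 5.23 in the controls, a difference of -0.36 with both IRP1 arrays below both controls (unadjusted p = 0.0413, limma adjusted p = 0.749). Its mean difference over the 5 tissues was -0.058 (SE 0.073, limma adjusted p = 0.764). Control brain was above control duodenum by 0.56 (1.47-fold, limma adjusted p = 0.0114), a call that was lost without control brain array 2 (0.45, adjusted p = 0.102), without control duodenum array 2 (0.45, adjusted p = 0.108) or with dim values raised to log2 5 (0.12, adjusted p = 0.0831). With dim values so raised its test across the 5 control tissues also missed the threshold (limma adjusted p = 0.172, against 0.000155 on the values as deposited).

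**Figure D4:**
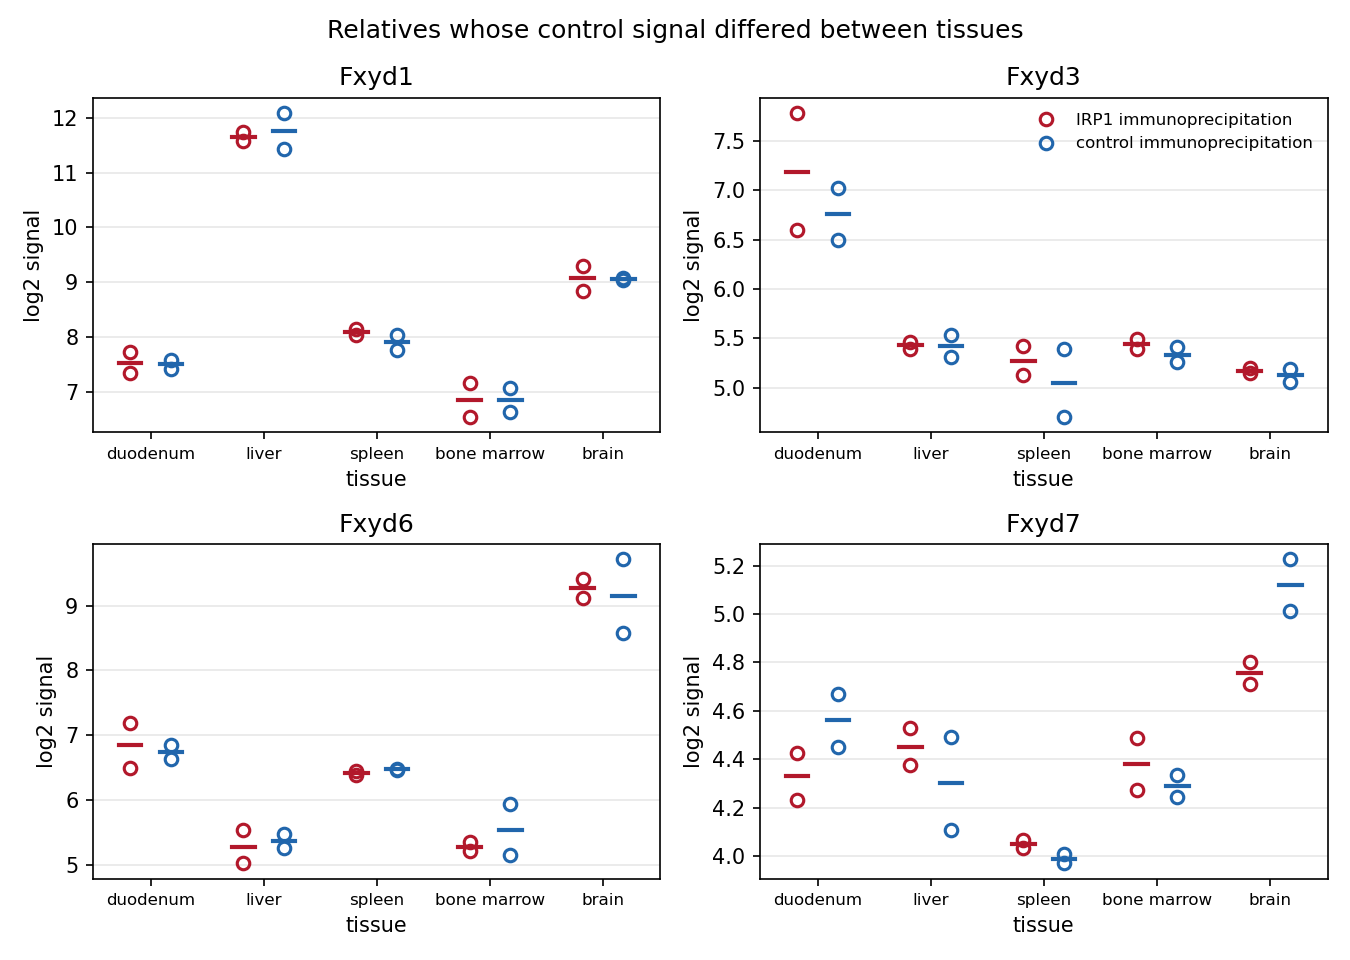
Log2 signal (vertical axes, each with its own range) in each array by tissue (horizontal axes) for the 4 relatives whose control signal differed between tissues, with IRP1 in red at the left and control in blue at the right of each pair; circles are arrays and bars are means of 2. Fxyd1 was brightest in liver, Fxyd3 in duodenum and Fxyd6 and Fxyd7 in brain. No difference between the reactions was called in any tissue. In some tissues the reactions stood apart, as for Fxyd7 in brain, and in duodenum the Fxyd3 arrays with IRP1 lay far from each other.

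The F-test of a difference in the IRP1 effect between tissues called 0 of the relatives' 9 probe sets (lowest limma adjusted p = 0.930). It called 0.0111% of all probe sets. By the assembly GRCm38.p6, the protein-coding genes Fam187b, Fxyd5, Fxyd7, Fxyd1, Lgi4, Fxyd3 and Hpn lie in that order on the chromosome, and Fxyd6 and Fxyd2 are neighbours elsewhere. The genes beside Fxyd5 did not pass: Fam187b differed by 0.028 (SE 0.13, limma adjusted p = 0.949) and Fxyd7 by -0.058. Lgi4 and Hpn, further along the same row, differed by 0.029 (SE 0.091, limma adjusted p = 0.916) and -0.026 (SE 0.12, limma adjusted p = 0.947).

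Partners of the FXYD proteins and related genes were followed through 5 lists drawn up from general knowledge. These held sodium pump subunits, related proton pump subunits, other sodium pump partners, and the epithelial sodium channel with its regulators. The last list held cell adhesion genes tied to Fxyd5 in other work. Of 25 genes 21 were measured, and 0 were called higher and 0 lower in the mean of 5 tissues by limma (0.773% and 1.03% of all probe sets were). An unadjusted p under 0.05 was found for 4 of the 21 (2 pump subunits and 2 cell adhesion genes), and for 16.4% of all probe sets. The other 4 listed genes were not analysed here. Among 5 measured pump subunits the median difference was -0.024. Atp1b3, a beta subunit, differed by 0.33 (SE 0.11, limma adjusted p = 0.123), and its call depended on the settings: it passed after quantile normalization (0.44, adjusted p = 0.00833) and without spleen IRP1 array 1 (0.43, adjusted p = 0.0140), which made 1 listed gene called in each. In duodenum Atp1b3 was 10.22 and 9.79 with IRP1, against 9.44 and 9.28 in the controls, and in bone marrow it was 10.57 and 11.06 with IRP1, against 10.35 and 10.38 in the controls. In spleen it was 10.96 and 11.92 with IRP1 and 11.20 and 11.25 in control, so the reactions overlapped in that tissue but not in duodenum or bone marrow. Liver gave 9.15 and 9.22 with IRP1 and 8.84 and 8.89 in control, apart as well, whereas brain overlapped (10.35 and 10.44 with IRP1, 10.33 and 10.37 in control).

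Atp1b1, the widespread beta subunit, which also links neighbouring epithelial cells, differed by -0.24 (SE 0.11, limma adjusted p = 0.291). Atp1b2, a beta subunit of glia and neurons, differed by 0.097 (SE 0.084, limma adjusted p = 0.628). Atp1a4, the alpha subunit of sperm, and Atp1b4 were dim and differed by -0.11 (SE 0.068, limma adjusted p = 0.481) and -0.024 (SE 0.068, limma adjusted p = 0.906). Outside the pump, the largest difference in each list was that of Atp4b (gastric proton pump, 0.15, SE 0.082, limma adjusted p = 0.395), Nkain2 (a pump-interacting membrane protein, -0.10, SE 0.080, limma adjusted p = 0.590), Sgk1 (a kinase that raises sodium channel activity, -0.28, SE 0.17, limma adjusted p = 0.446) and Ctnna1 (alpha catenin of cell junctions, -0.32, SE 0.12, limma adjusted p = 0.206).

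**Figure D5:**
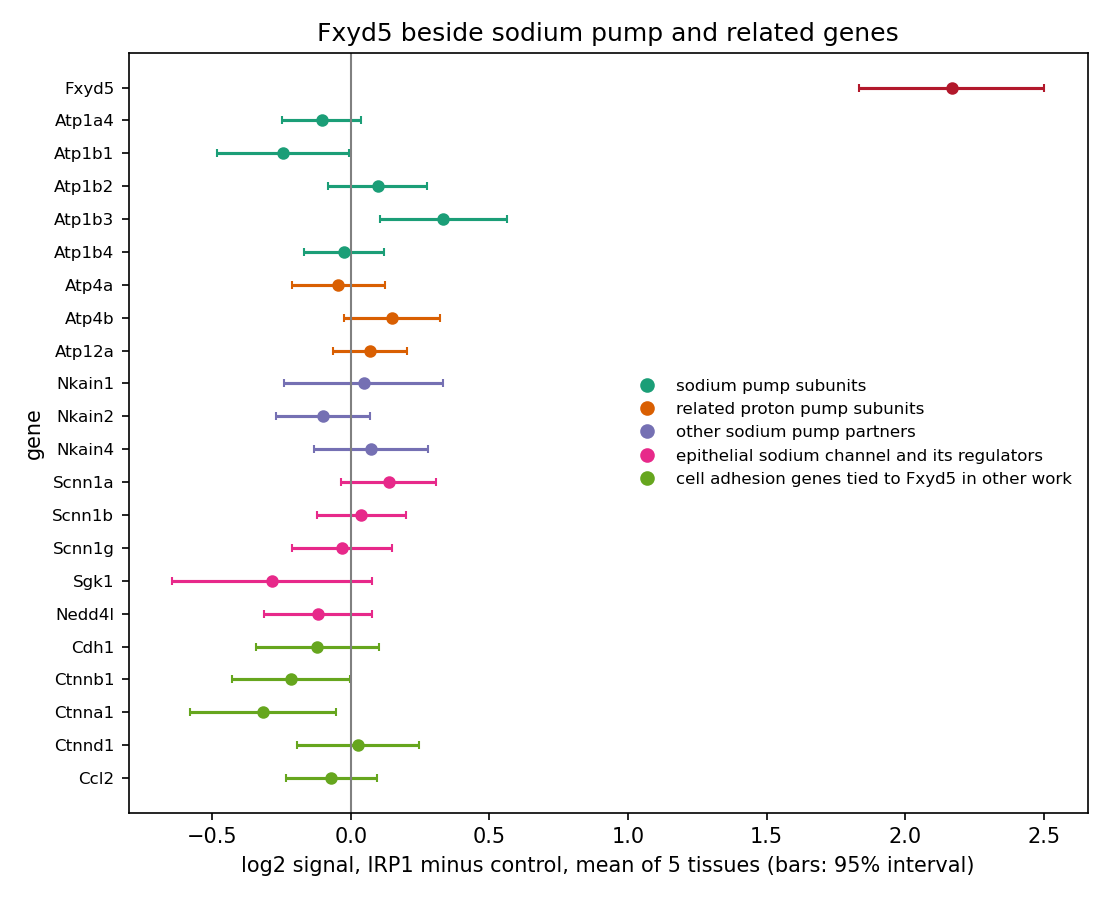
Difference in log2 signal, IRP1 minus control, in the mean of 5 tissues (horizontal axis) for Fxyd5 and the 21 measured genes of 5 lists (rows, coloured by list), with 95% intervals as bars. Fxyd5 lies at 2.17, and the listed genes lie between -0.32 and 0.33.

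Over the 20 arrays, the genes whose signals followed Fxyd5 most closely were Svbp (Pearson r = 0.932), Cdk9 (0.929), Med7 (0.918), Nxf1 (0.907) and Pex6 (0.906). The genes most like the relatives were Aox1 (0.992) and Thrsp (0.983) for Fxyd1, Chmp4c (0.965) and Creb3l4 (0.959) for Fxyd3, and Adcy5 (0.971) and Efr3b (0.970) for Fxyd6. IRP1 minus control in the mean of 5 tissues was 0.82 for Svbp, 1.26 for Cdk9, 0.46 for Med7, 0.79 for Nxf1 and 0.47 for Pex6. For the genes most like the relatives it ran from -0.44 (Thrsp) to 0.19 (Chmp4c). Likeness to Fxyd5 thus includes the difference that chose it. The arrays share tissues and reactions, so these correlations describe likeness of pattern only.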

How the data were processed

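The authors deposited log2 signals per probe set; per the series design text they came from RMA or from MAS5 (GCOS) with quantile normalization, and which of these made the table is not stated. Neither a filter nor a pseudocount was applied to them. Probe sets were named through GEO's platform annotation. Replicates within a reaction and tissue correlated at 0.983 to 0.992.

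A linear model with 10 groups was fitted to 20 arrays and 45037 probe sets with limma 3.58.1 in R 4.3.3 (10 residual degrees of freedom, prior 6.14), after a test on simulated data. Contrasts were IRP1 minus control per tissue and in the mean of 5 tissues, F-tests of the difference of that effect and of the control level between tissues, and control pairs. Adjusted p is Benjamini-Hochberg over all probe sets, and a call needs it under 0.05. A gene is represented by its brightest probe set on average. All FXYD probe sets and all measured pump subunits were named, and of other lists the member with the largest difference. Members and lists were chosen with earlier results of these data known. Alternatives were other normalizations, a floor or filter on dim values, array weights, a replicate block and omitted arrays. Figures used Python 3.11.15 and matplotlib 3.10.9.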

Additional observations from a re-analysis of the deposited data

Results flagged for a closer look

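In 3 dim probe sets of the relatives, both IRP1 arrays lay above both controls in some tissues and below them in others. Over all probe sets, 17.8% of pairs of probe set and tissue had both IRP1 arrays above and 19.7% had both below. For Fxyd2 (1419379_x_at), IRP1 minus control was 0.15 in duodenum and 0.15 in brain, and -0.12 in liver. For Fxyd2 (1419378_a_at) it was 0.049 in brain and -0.20 in bone marrow. For Fxyd7 it was 0.061 in spleen, and -0.23 in duodenum and -0.36 in brain. These pairs of tissues were not tested against each other. The F-test over all 5 tissues gave limma adjusted p of 0.949, 0.982 and 0.930 for the 3 probe sets.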

How the results depend on the processing

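Fxyd5 was chosen for its difference in these same arrays, so the alternatives describe that difference and do not test it. In the mean of 5 tissues it ran from 2.04 to 2.30 over the 27 alternatives. With single arrays left out it ran from 1.54 to 2.48 in duodenum, 0.85 to 1.21 in liver, 1.82 to 3.14 in spleen, 2.46 to 3.20 in bone marrow and 2.41 to 2.58 in brain, and in spleen it was 1.97 without the 3 arrays with low hybridization controls. The relatives had 0 calls in each alternative. Fxyd3, Fxyd7 and Fxyd2 (1419379_x_at) kept the sign of their mean difference in the alternatives that gave a value. The others lay near 0 and changed sign, as did Atp1b4: without the 3 arrays, 0.020 for Fxyd2 (1419378_a_at) and 0.033 for Fxyd6; with a floor of log2 5, 0.023 for Fxyd2 (1449883_at); with single arrays left out, -0.038 to 0.091 for Fxyd1, -0.056 to 0.015 for Fxyd2 (1419378_a_at), -0.066 to 0.0084 for Fxyd2 (1456601_x_at), -0.017 to 0.079 for Fxyd4, -0.15 to 0.078 for Fxyd6 and -0.051 to 0.0023 for Atp1b4. Quantile normalization called 1 listed gene, Atp1b3, and Fxyd2 (1456601_x_at) between control tissues (adjusted p = 0.0398), so 6 FXYD probe sets were called there and 4 with the floor. The causes were not tested. The floor gave no value for probe sets wholly below it. Whether replicate numbers pair samples is not stated, and the main fit left pairing out. The correlation of deviations between same-numbered reactions was 0.27 in duodenum, -0.074 in liver, 0.53 in spleen, -0.039 in bone marrow and 0.12 in brain. Some marker lists moved with the number in both reactions. The hepatocyte list in spleen was 5.89 with IRP1 and 5.88 in control for number 1, and 7.17 and 7.34 for number 2. In brain it was 6.82 and 6.77 for number 1, and 5.67 and 5.53 for number 2. The hepatocyte list did not move so in duodenum, liver or bone marrow, but other lists did in duodenum and liver. In duodenum the pancreatic acinar list was 13.57 with IRP1 and 13.85 in control for number 1, and 11.90 and 12.77 for number 2. In liver the enterocyte list was 7.90 and 8.52 for number 1, and 9.53 and 9.59 for number 2. Whether same-numbered reactions shared RNA was not tested. With the replicate block the Fxyd5 mean difference was 2.17 (SE 0.13), and no call changed. The number of arrays limits precision, and dim signals compress differences. This holds for Fxyd2 and Fxyd7, for Fxyd3 outside duodenum, and for Fxyd6 in liver and most bone marrow arrays. Fxyd3 exceeded the array median in 4 arrays, all from duodenum, and Fxyd6 did so in 13. The mean differences of Fxyd3 and Fxyd6 over the 5 tissues thus rest partly on dim signals.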

Other observations

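Over all 43 probe sets of the listed genes, 1 was called in the mean of 5 tissues, where 0.773% of all probe sets were called higher and 1.03% lower. A dimmer probe set of Nedd4l (1457374_at), a ubiquitin ligase of the epithelial sodium channel, was lower with IRP1 (-0.44, SE 0.092, limma adjusted p = 0.0221). Its brightest probe set differed by -0.12 (SE 0.092, limma adjusted p = 0.575). Of the genes beside the Fxyd genes, 4933440N22Rik, next to Fxyd4, was higher with IRP1 (0.40, SE 0.084, limma adjusted p = 0.0230). These features were chosen after their values were seen.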
